A study of Mus musculus with 8 samples.

Results

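The genes described here encode the proteins of the cytosolic ribosome. They were taken by symbol, as Rpl or Rps followed by a number with an optional letter, x or l, together with Rplp0, Rplp1, Rplp2 and Rpsa, and without pseudogene symbols that carry "-ps" and without the Rps6 kinases. Of the 32285 genes in the count matrices, 80 had such a symbol and 78 of them reached the limit of 1000 unique molecular identifiers (UMIs) summed over all libraries. Of the 78 genes, 47 encode proteins of the large subunit and 31 proteins of the small subunit. The limit left out Rpl10l (4 UMIs) and Rpl3l (392 UMIs), and the members with the fewest UMIs were Rpl39l (41146), Rpl29 (111570) and Rps27l (240722). The members held 121290444 of the 908386300 UMIs of all libraries, or 13.4%.

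A ribosome carries 1 copy of nearly every ribosomal protein, and the genes for them are among the most strongly transcribed in most cells. Many of their mRNAs start with a run of pyrimidines, the terminal oligopyrimidine (TOP) motif, through which their translation follows nutrient and growth signals. In bone, osteoblasts use much of their translation for collagen and other secreted matrix proteins, whereas rapidly dividing blood precursors build ribosomes for each new cell.

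The study asked how loss of the SOXC transcription factors Sox4, Sox11 and Sox12 alters the cells of adult long bones. Femurs and tibiae of 8 female mice were scraped free of periosteum and digested with enzymes, most haematopoietic cells were removed by immunomagnetic sorting, and the rest was profiled by droplet single-cell RNA sequencing (10x Genomics 3′ v3), with 1 library per mouse. All mice carried floxed alleles of the SOXC genes (Sox4fl/fl Sox11fl/fl Sox12fl/fl). The 4 mutants (SOXCOsxCre, 2 mice of 7 weeks and 2 of 13 weeks) also carried OsxCre, whose Cre is made chiefly by cells on the way to osteoblasts and is shut off by tetracyclines, and doxycycline food kept it silent in early life, and the 4 controls of the same ages, sisters of the mutants, carried no Cre. A difference between the genotypes therefore includes any effect of the Cre transgene itself.

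Libraries held 12086 to 14151 barcodes and 81894604 to 156090286 UMIs, and the replicate 1 library was the deeper of the pair in each of the 4 groups. After filtering and removal of doublets, 59629 cells were kept (6410 to 8753 per library), and no 2 libraries shared more than 63 cell barcodes (0.456% of the smaller library). Clustering, done without the ribosomal protein genes, gave 37 clusters, which were named from marker lists, so the suffix "-like" is used throughout. The targeted gene Sox4 fell in mutant cells of the osteogenic classes, by 1.58 on the log2 scale in osteoblast (OB)-like cells (edgeR adjusted p = 0.00071), by 1.38 in Postn+ osteoprogenitor/preosteoblast (OP/preOB)-like cells (0.00065), by 1.36 in Lepr+ OP-like cells (0.00204) and by 1.30 in Lepr+ mesenchymal stem cell (MSC)-like cells (0.00371). Its log2 difference was 0.04 in growth plate chondrocyte-like and 0.17 in haematopoietic progenitor-like cells, where the adjusted p was 1.00 and 0.961. The granulocyte or monocyte-like class met 7 of its 12 markers and was led by the basophil genes Prss34 and Mcpt8 besides Mpo, Ctsg and Elane. Clusters of few UMIs (10721 cells) were kept out of every class.

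The starts of 6 members are shown because the cell type, paralog and age results below turn on these genes. Each line gives 10 bases before and 20 from the RefSeq transcript start on (build GRCm38.p6, strand of transcription). Capitals mark a TOP-type run, taken as a C followed by at least 4 bases that are each C or T, which was searched on the transcribed strand within 5 bases of the start. Where several such matches overlap, only the one that begins nearest to the start is in capitals.
Rpl38, chr11:114668570-114668599, plus strand: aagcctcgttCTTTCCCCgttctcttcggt
Rps27, chr3:90213629-90213658, minus strand: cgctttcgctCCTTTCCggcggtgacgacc
Rps27l, chr9:66946076-66946105, plus strand: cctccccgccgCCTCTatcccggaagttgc
Rpl39, chrX:37085203-37085232, minus strand: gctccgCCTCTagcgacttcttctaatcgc
Rpl39l, chr16:10170218-10170247, plus strand: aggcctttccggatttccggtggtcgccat
Rps24, chr14:24490668-24490697, plus strand: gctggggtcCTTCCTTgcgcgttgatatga
In Rpl38 and Rps27 a match began exactly at the start, in Rps27l, Rpl39 and Rps24 the nearest one lay 1 to 4 bases from it, and in Rpl39l none began within 5 bases of the start. In Rpl38, Rps27 and Rps24 the pyrimidines continue upstream of the capitals. Runs that begin farther away, as upstream of the Rpl39l and Rps27l starts, were not counted and are left in lower case. The promoter table held 69 starts of 58 members. A match began exactly at the start in 13 of them (18.8%), against 2.51% of all 32851 starts in the table, and within 5 bases of it in 30 (43.5%), against 18.3% of all starts. These matches describe letters only.

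The share of all UMIs that came from the members differed severalfold between cell types. It was highest in the blood precursors left after the immunomagnetic sorting, at 34.6% ± 2.06 (SD, n = 8 mice) in haematopoietic progenitor-like cells, 31.1% ± 1.82 in the erythroid-like and 28.0% ± 1.16 in the granulocyte or monocyte-like class. These 3 classes took the same ranks in 8 of 8 mice. Among the bone and stromal cells, Postn+ OP/preOB-like cells, which carry preosteoblast genes such as Postn, Tnc and Vcan, came first with 15.7% ± 1.76, followed by growth plate chondrocyte-like cells with 14.3% ± 0.630. The order of this pair held in 6 of 8 mice, and their ranges, 13.3 to 19.1% and 13.1 to 15.02%, overlapped. It also depends on the clustering, since 1 of 5 seeds merged the Postn+ class with Lepr+ OP-like cells, and the merged class had 11.5 to 16.4%. Endothelial-like (11.7% ± 0.757), Lepr+ OP-like (11.3% ± 0.899), OB-like (11.1% ± 1.05) and Sca1+ MSC-like cells (10.8% ± 1.07) had overlapping ranges over mice. Within mice, each of the first 3 lay above the next in 6, 5 and 5 of 8 mice. Pericyte-like (8.50% ± 0.794) and Lepr+ MSC-like cells (8.01% ± 0.590), the adipogenic stroma of the marrow marked by Adipoq and Lpl, had the lowest shares, below the other 9 classes in 8 of 8 mice. Clusters of few UMIs are left out of all these shares. Along the osteogenic classes the share of all UMIs was thus lowest in Lepr+ MSC-like cells, highest in Postn+ OP/preOB-like cells and lower again in OB-like cells. The last step depends on the denominator, as given below.

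**Figure D1:**
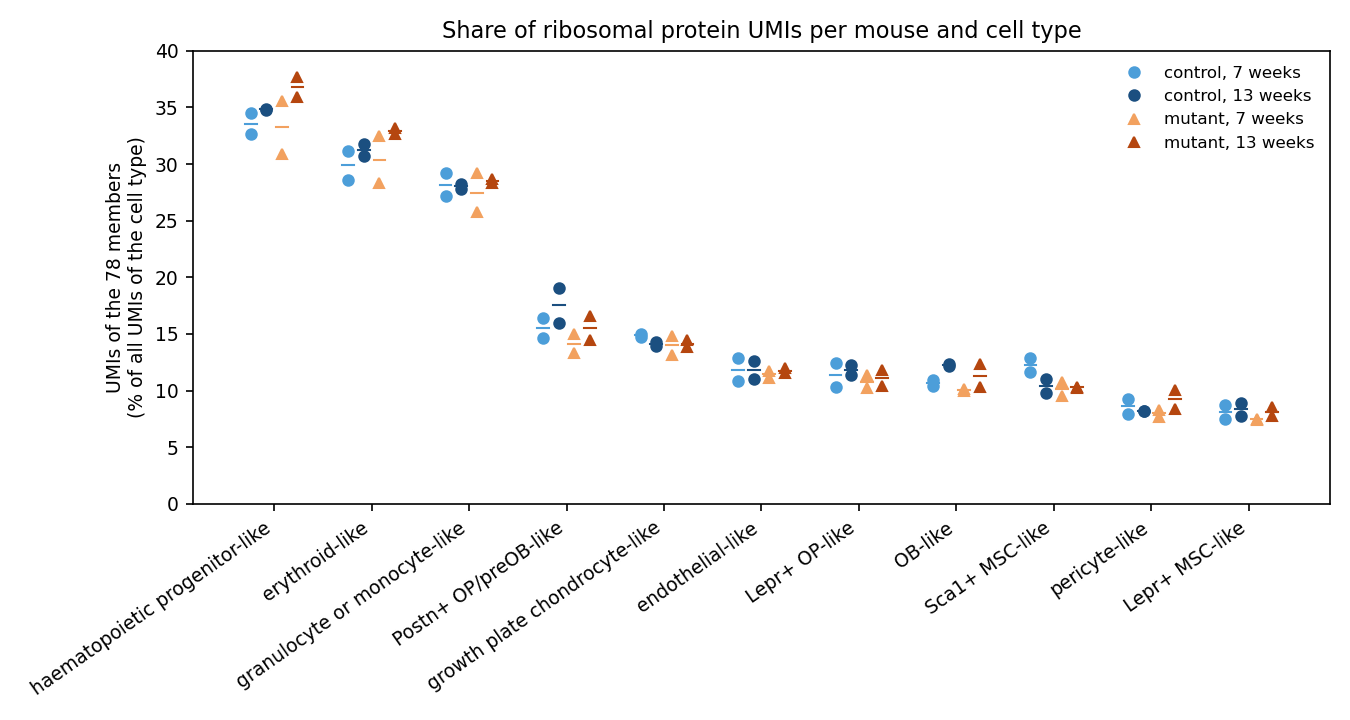
Share of the 78 ribosomal protein genes in all UMIs (y axis, percent) for each of the 8 mice in 11 cell types (x axis), with circles for controls, triangles for mutants, light colours for 7 weeks, dark colours for 13 weeks and short lines for group means. The haematopoietic classes lie between 25.7 and 37.6%, above the bone and stromal classes, which lie between 7.43 and 19.1%, and the genotypes overlap in each cell type.

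Translation factors, a list of 16 genes for initiation and elongation factors and related proteins, took 2.86% of UMIs in haematopoietic progenitor-like and 0.892% in Lepr+ MSC-like cells, the classes with the highest and the lowest ribosomal share. Secreted bone matrix genes took 28.6 to 40.2% of the UMIs of OB-like cells and 6.55 to 11.2% of those of Postn+ OP/preOB-like cells, so that the denominator of the share is not alike between classes. Without these genes in the denominator the OB-like share rises more than that of the other osteogenic classes. The place of OB-like cells in the order is therefore that of shares of all UMIs only. The median UMI count per cell, averaged over mice, was 29343 in erythroid-like, 10479 in haematopoietic progenitor-like, 15695 in OB-like, 5761 in Lepr+ MSC-like and 4395 in pericyte-like cells, and its part in the order was not tested. The small subunit genes held 41.6 to 46.2% of the ribosomal UMIs over all classes and mice, 45.5% on average in haematopoietic progenitor-like and 42.1% in OB-like cells.

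Clusters within a class differed as well. The 7 clusters of OB-like cells ranged from 4.56% ± 0.968, in a cluster led by Col22a1, Col1a1 and Col1a2, to 14.5% ± 1.51 in one led by Ifitm5, Col22a1, Postn and Thbs4. The cluster of interferon-induced genes (Iigp1, Igtp, Cxcl9) had 11.0% ± 1.41, and the largest one, with 7732 cells, 12.3% ± 1.06. Among growth plate chondrocyte-like cells, the clusters led by Cnmd, the gene of the cartilage protein chondromodulin, had 16.5% ± 0.527 and 16.3% ± 1.26, whereas the clusters in which the hypertrophic collagen gene Col10a1 was among the leading genes had 12.7% ± 0.518 and 11.1% ± 0.548. Lepr+ OP-like cells of a proliferating cluster (Top2a, Birc5, Cenpf) had 14.0% ± 1.14, against 11.0% ± 0.936 in the other cluster of this class. In haematopoietic progenitor-like cells the direction was the other one, with 32.5% ± 2.08 in the cluster with Top2a and Ube2c and 35.8% ± 1.92 in the other. The lowest share of all clusters, 4.05% ± 1.30 (7 mice), was found in a cluster of few UMIs led by the platelet genes Ppbp and Pf4. Some other clusters of few UMIs lay apart from the class whose markers they matched best. A cluster of 2151 cells with Lepr+ MSC markers had 15.5% ± 1.58, against 8.01% in the class. Those with erythroid markers had 8.09% ± 0.742 (2876 cells), 6.92% ± 2.45 (220 cells) and 28.8% ± 4.19 (227 cells), against 31.1% in the class. With OB, growth plate chondrocyte and endothelial markers the values were 12.2, 12.4 and 15.6%. These comparisons between cell types and clusters are descriptions without a test.

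The members did not keep a fixed ratio to each other. To compare each gene with itself across cell types, its share of the ribosomal UMIs was averaged over the control mice on the log2 scale. The range of this value over the 11 cell types had a median of 0.51 among the 78 members, and it was above 1 for 3 of them, Rpl39l (7.02), Rps27 (1.23) and Rps27l (1.13). The next 7 were Rpl41 (0.98), Rpl21 (0.91), Rpl4 (0.91), Rplp1 (0.90), Rpl14 (0.88), Rplp0 (0.87) and Rpl38 (0.86). The most even members were Rpl6 (0.14) and Rps10 (0.17).

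Among the stalk genes, whose products form the lateral arm that recruits elongation factors, Rplp0 made up 2.49% ± 0.279 of the ribosomal UMIs in growth plate chondrocyte-like and 2.23% ± 0.297 in OB-like cells, against 1.32% ± 0.169 in endothelial-like cells (SD, n = 8). Rplp1 was also highest in growth plate chondrocyte-like cells, with 2.89% ± 0.175, and lowest in granulocyte or monocyte-like cells, with 1.55% ± 0.0728. Rplp2 followed another order, with 1.18% ± 0.194 in pericyte-like and 0.805% ± 0.105 in OB-like cells. The stalk partners thus did not follow 1 order across cell types. The genes of the 5S particle, whose proteins bind Mdm2 when ribosome assembly is disturbed, varied little, as Rpl5 had a range of 0.29 and Rpl11 of 0.30.

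In the large subunit, Rpl38, known for its part in the translation of Hox mRNAs in the embryonic axial skeleton, was highest in OB-like cells at 1.65% ± 0.447 and lowest in erythroid-like cells at 0.893% ± 0.240. Rpl21 stood out in pericyte-like cells with 1.84% ± 0.197, while the other 10 classes lay between 1.04 and 1.35% on average. Rpl4 was highest in erythroid-like cells (0.717% ± 0.0599) and lowest in Lepr+ MSC-like cells (0.395% ± 0.0290), and Rpl14 was highest in erythroid-like (1.42% ± 0.106), OB-like (1.30% ± 0.138) and haematopoietic progenitor-like cells (1.28% ± 0.124). Rpl41, which encodes the shortest ribosomal protein, had 2.94% ± 0.675 in OB-like and 1.46% ± 0.356 in haematopoietic progenitor-like cells. In the small subunit, Rpsa, the gene of the laminin receptor protein, ranged from 1.49% ± 0.118 in endothelial-like to 2.43% ± 0.165 in erythroid-like cells, and Rps6, the substrate of the S6 kinases, from 0.591% ± 0.0840 in OB-like to 0.973% ± 0.138 in haematopoietic progenitor-like cells. Rps19 also had its highest value in haematopoietic progenitor-like cells, at 1.70% ± 0.117, and its lowest in OB-like cells, at 1.06% ± 0.0706. Rps3 (log2 range 0.36), Rpl3 (0.40) and Rps4x (0.18) were among the members with a range under the median, and Rpl13a (0.61) and Rpl10 (0.72) were above it.

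**Figure D2:**
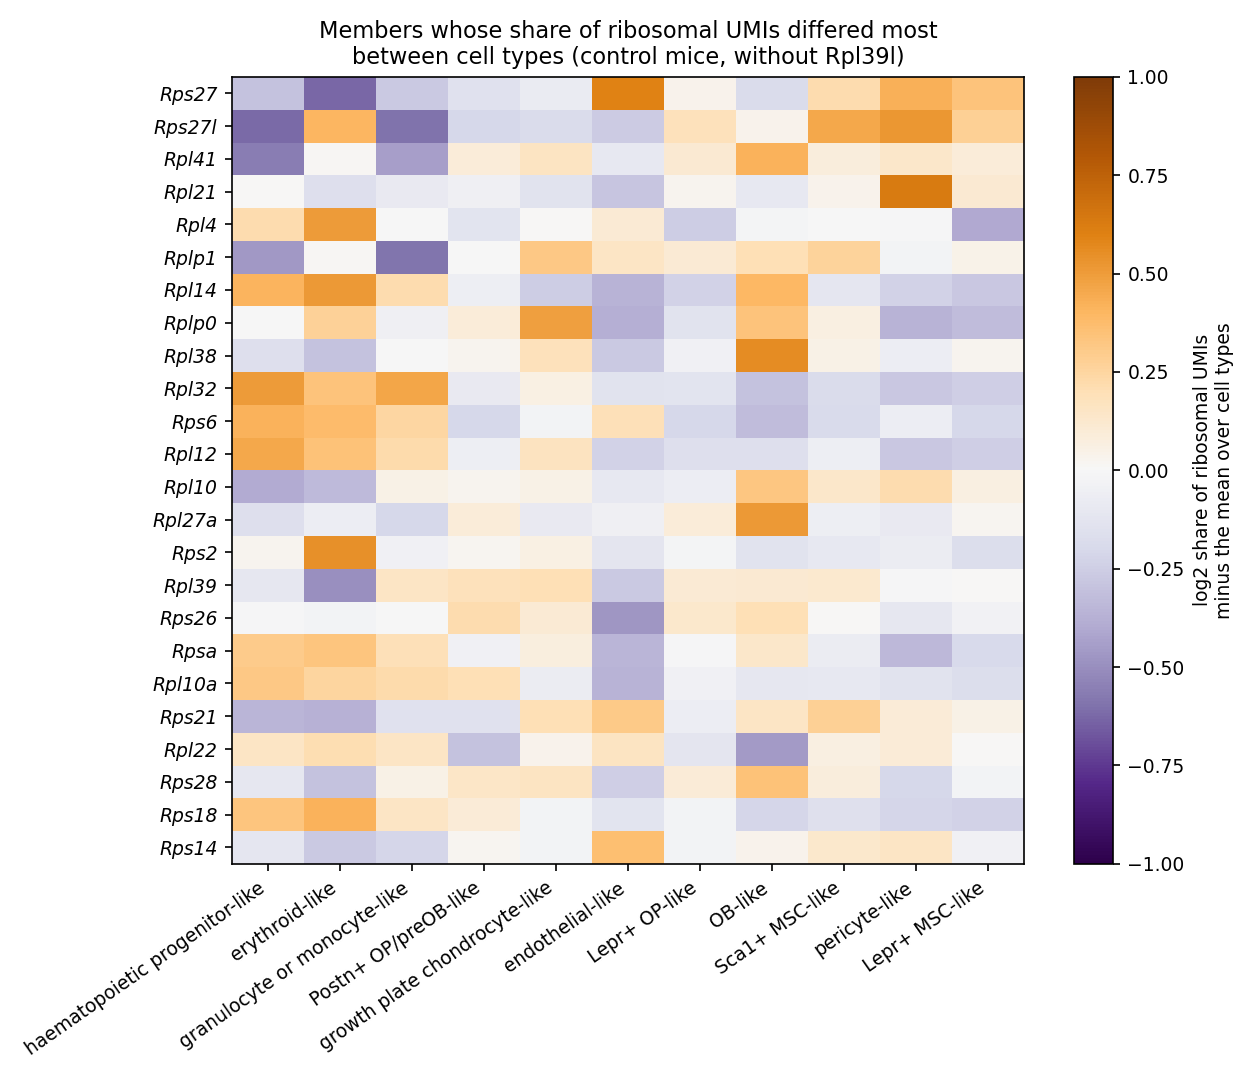
Members other than Rpl39l with the widest range over cell types (rows) in 11 cell types (columns), with colour showing the log2 share of ribosomal UMIs in control mice minus the mean over cell types. Rps27 is high in endothelial-like and low in erythroid-like cells, Rpl38 and Rpl27a are high in OB-like cells, Rpl21 in pericyte-like cells, and Rpl32, Rps6 and Rpl12 in the haematopoietic classes.

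The 3 haematopoietic classes and the 7 mesenchymal classes, that is all others but endothelial-like cells, differed in how the ribosomal UMIs were divided. Of the 78 members, 26 were higher and 31 lower in the haematopoietic than in the mesenchymal classes in 8 of 8 mice. As each value is a share of the ribosomal UMIs, some members must fall where others rise, and the same count over all genes was not made. Among the former, chosen for naming after their values were seen, Rpl32 was higher by 0.61 ± 0.0714 (log2, SD over mice), Rps6 by 0.53 ± 0.0641, Rpl12 by 0.47 ± 0.0341, Rpl14 by 0.47 ± 0.0524 and Rps18 by 0.44 ± 0.0504. Among the latter, the differences were -0.54 ± 0.145 for Rps27l, -0.52 ± 0.0869 for Rpl41, -0.50 ± 0.0308 for Rps27, -0.48 ± 0.0600 for Rplp1 and -6.71 ± 0.806 for Rpl39l. Apart from Rpl39l, each of these differences was less than 1 on the log2 scale.

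Libraries differed in the same measure, in which members are again shares of 1 total. The replicate 1 libraries, which were the deeper ones, were compared with the replicate 2 libraries of their group in 44 pairs (4 groups in 11 cell types). The share of ribosomal UMIs was higher in replicate 1 in 44 of 44 pairs for 12 members, among them Rpl39 (0.79 on the log2 scale), Rps21 (0.70), Rpl37 (0.65) and Rps27 (0.64), and lower in 44 of 44 for 16, among them Rpl13 (-0.42). Rpl35 had the lowest value (-0.45). Of the 19 members with a transcript under 500 bases, 17 were higher in replicate 1, with a median of 0.31, against 14 of the 59 longer ones, with a median of -0.15. Across the 78 members, Pearson's r between this difference and transcript length (271 to 3706 bases, median 679.5) was -0.51 and Spearman's rho -0.53. All points share the same libraries, and genes are not independent replicates. These differences between replicates are as large as many of those between cell types. Depth and whatever else distinguished the replicate libraries cannot be told apart.

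**Figure D3:**
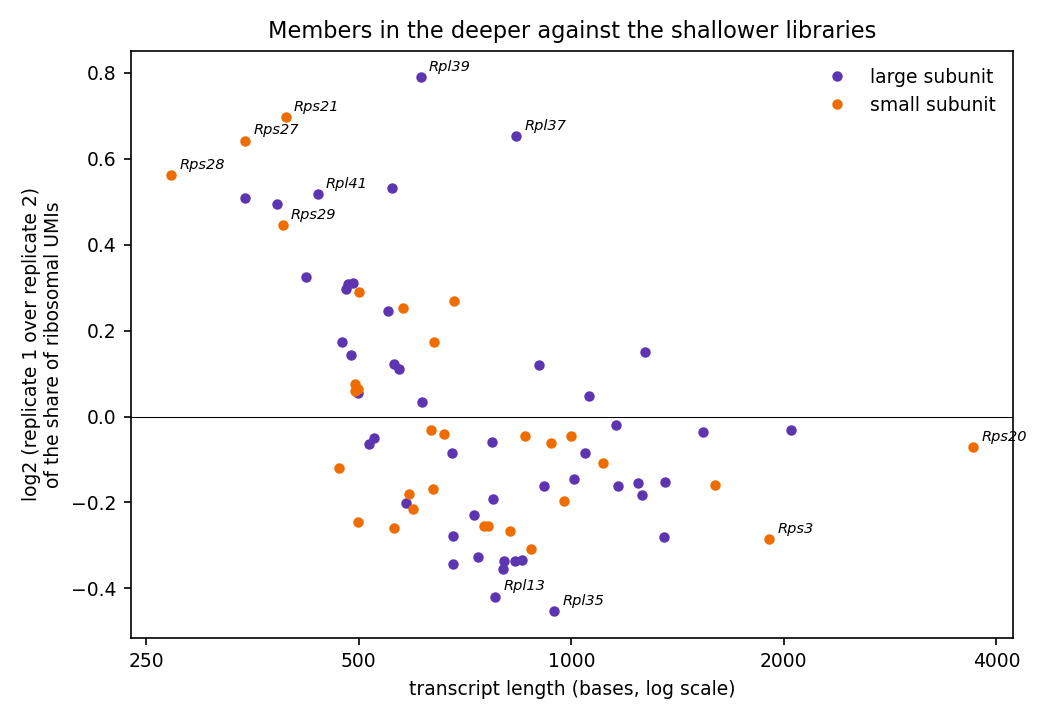
Difference between replicate 1 and replicate 2 libraries in the share of ribosomal UMIs (y axis, mean log2 ratio over 44 pairs) against transcript length (x axis, bases, log scale) for 78 members, with large subunit genes in purple and small subunit genes in orange. Short transcripts such as Rps28, Rps27 and Rps21 lie above 0 and Rpl13 and Rpl35 below -0.4.

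A pair of paralogs showed the clearest cell type pattern. Rpl39l (chromosome 16, 10170226 to 10174911, 3 exons) is a paralog of the X-linked gene Rpl39 (X, 37082520 to 37085402), and its protein is known from male germ cells, where it sits at the peptide exit tunnel. Over all mice, the level of Rpl39l, as a CPM value (its UMIs scaled to a common library total), was 51.8 in OB-like, 56.9 in Lepr+ MSC-like, 63.7 in pericyte-like, 71.3 in growth plate chondrocyte-like, 80.1 in Postn+ OP/preOB-like, 81.6 in Lepr+ OP-like and 85.3 in Sca1+ MSC-like cells. It had 1.34 in erythroid-like, 2.18 in granulocyte or monocyte-like, 2.71 in haematopoietic progenitor-like and 4.14 in endothelial-like cells. The gene was thus higher in the 7 mesenchymal classes and low in endothelial and haematopoietic cells, although erythroid-like cells had the highest median UMI count per cell (29593 with all mice pooled, against 13160 in OB-like cells).

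The level in haematopoietic classes rested on 161 UMIs in 4982 cells. To gauge free RNA, the same levels were expressed as a percent of those in OB-like cells beside Bglap, the osteocalcin gene of osteoblasts. Rpl39l reached 2.60 to 5.23% in the 3 haematopoietic classes and Bglap 1.02 to 1.60%, and in endothelial-like cells these values were 7.99% and 2.10%. Of the UMIs of the Rpl39 and Rpl39l pair, Rpl39l held 3.11% ± 0.874 in OB-like and 5.47% ± 1.42 in pericyte-like cells, the extremes of the mesenchymal classes, against 0.0464% ± 0.0336 to 0.307% ± 0.180 in endothelial and haematopoietic classes. The sequences of the paralogs were not compared here and the assignment of reads between them was not tested, so their split remains uncertain.

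**Figure D4:**
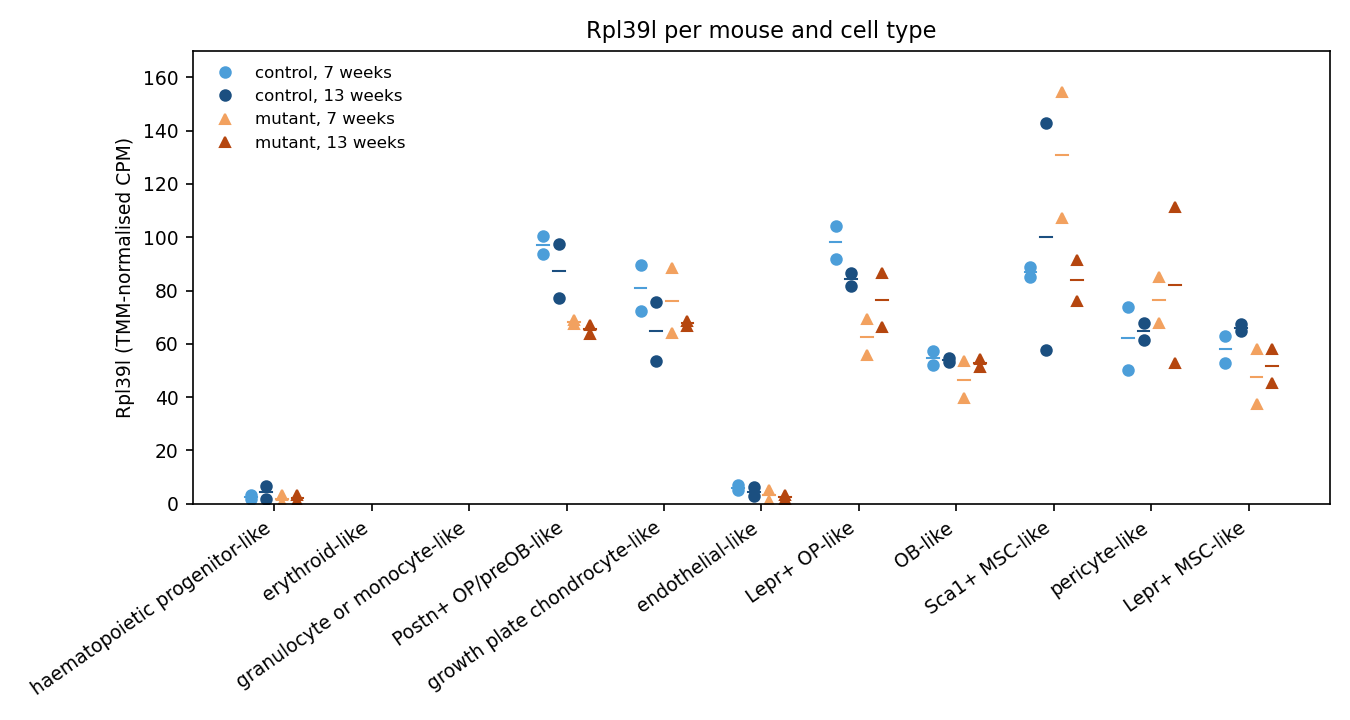
Rpl39l per mouse (y axis, CPM after TMM scaling) in each cell type (x axis), with circles for controls, triangles for mutants and short lines for group means. In Postn+ OP/preOB-like cells the 4 controls lie between 77.2 and 100.5 and the 4 mutants between 63.7 and 69.0. No values are drawn for erythroid-like and granulocyte or monocyte-like cells, where the gene did not pass the filter on low counts.

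The other close pair, Rps27 and Rps27l, both of the small subunit and the latter a p53 target, also shifted. Rps27l held 11.3% ± 2.10 of the UMIs of the pair in endothelial-like cells, 14.99% ± 2.36 in haematopoietic progenitor-like, 21.8% ± 4.09 in OB-like and 32.5% ± 5.07 in erythroid-like cells. In each of the 11 classes this share was lower in the replicate 1 control of 7 weeks than in its replicate 2, in OB-like cells with 17.1 against 24.4%.

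Genotype was compared first in the share itself, with an exact two-sided permutation test over the 8 mice (70 splits, smallest possible p 0.0286). No class passed after adjustment over the 11 cell types, with adjusted p from 0.673 to 0.971, and control and mutant mice overlapped in each of them. Even at the smallest possible p, a class could not pass this adjustment unless most other classes reached that p too. The lack of a pass therefore does not show that the genotypes were alike. In Postn+ OP/preOB-like cells, the class with the largest difference, controls had 14.6 and 16.4% at 7 weeks and 19.1 and 15.96% at 13 weeks, and mutants 14.96 and 13.3% and 14.4 and 16.6%. The difference of -1.70 percentage points (14.8% ± 1.35 against 16.5% ± 1.86) had an exact permutation p of 0.229, and it was -0.844 without the control of 13 weeks replicate 1. With Lepr+ OP-like and Postn+ OP/preOB-like cells taken as 1 class the difference was -1.01. The mutants of 7 weeks replicate 1 and 13 weeks replicate 2 lay within the range of the controls.

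In OB-like cells the controls had 10.4, 10.9, 12.1 and 12.3% and the mutants 10.1, 9.92, 10.3 and 12.4%, in the order 7 weeks replicate 1 and 2, then 13 weeks. Of the 4 mutants, 3 lay below all controls and 1 above all, with a difference of -0.765 percentage points (exact permutation p = 0.257). Secreted matrix genes held 36.8, 31.4, 34.3 and 28.6% of the UMIs in these controls and 39.2, 34.2, 40.2 and 31.8% in the mutants, and without these genes in the denominator the difference in share was -0.255. Without the control of 13 weeks replicate 2 it was -0.469, and without the mutant of 13 weeks replicate 2 it was -1.33, each with all genes in the denominator. In Sca1+ MSC-like cells, with 33 to 176 cells per mouse, the difference was -1.09, and it was -0.582 without the control of 7 weeks replicate 2. In erythroid-like cells it was 1.07, with 31.6% ± 2.25 in mutants and 30.6% ± 1.37 in controls. Leaving out single libraries moved this difference to between 0.411 (without the control of 7 weeks replicate 2) and 2.18 (without the mutant of 7 weeks replicate 2). In the other 7 classes the difference lay between -0.652 and 0.795.

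Single members were then tested in each cell type with edgeR's quasi-likelihood test on UMIs summed per mouse, adjusted over all genes of the cell type. Of 856 member tests for genotype, averaged over both ages, 0 passed at an adjusted p of 0.05, 2 had an unadjusted p under 0.05, and DESeq2 called 0. The 2 were 1 of 78 members (1.28%) in Postn+ OP/preOB-like and 1 of 78 in Lepr+ OP-like cells. There 8.74 and 7.03% of all genes had an unadjusted p under 0.05, so the members lay below the share of all genes. Over all genes, this model without a block called 1.36% in OB-like cells, 0.783% in Postn+ OP/preOB-like, 0.343% in Sca1+ MSC-like, 0.272% in Lepr+ OP-like and 0.216% in Lepr+ MSC-like cells, and 0.0% in the other 6 classes. With the replicate number as a block in the edgeR model, 3 member tests passed, 1 each in OB-like, Postn+ OP/preOB-like and erythroid-like cells, where that model called 8.51, 2.36 and 0.543% of all genes. At this number of mice the test called 73.0% of genes given a log2 change of 1 in simulated OB-like sums and 76.5% in Lepr+ MSC-like sums. Smaller changes were not simulated, so these figures do not say how often changes of the members' size would be called.

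Both unadjusted results were for Rpl39l. In Postn+ OP/preOB-like cells its CPM after TMM scaling was 93.9 and 100.5 in controls of 7 weeks, 97.4 and 77.2 in controls of 13 weeks, 69.0 and 67.3 in mutants of 7 weeks and 67.2 and 63.7 in mutants of 13 weeks. All mutants lay below all controls. The share of all genes whose genotypes separated in this way is not given here. The log2 fold change was -0.47 (SE 0.15), with an edgeR adjusted p of 0.263 over all genes, and it lay between -0.54 and -0.38 when any single library was left out. In the model with the replicate block it was -0.46 (SE 0.11), with an edgeR adjusted p of 0.0397, which is a call.

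In Lepr+ OP-like cells Rpl39l was 91.9, 104, 81.8 and 86.7 CPM in controls and 69.5, 55.9, 86.4 and 66.5 in mutants, in the same order, and here the groups overlapped (log2 -0.39, SE 0.15, edgeR adjusted p 0.540). With both classes taken as 1, controls had 82.5 to 102 and mutants 61.0 to 74.5 CPM of Rpl39l before TMM scaling, without overlap. The log2 difference was -0.32 (SE 0.16) in Lepr+ MSC-like cells and -0.13 (SE 0.11) in OB-like cells, with edgeR adjusted p of 0.764 and 0.792. Without the mutant of 7 weeks replicate 2 these Rpl39l values were -0.19 and -0.03, and without the mutant of 7 weeks replicate 1 they were -0.51 and -0.25. It was 0.13 in Sca1+ MSC-like, 0.32 in pericyte-like and -0.01 in growth plate chondrocyte-like cells. In endothelial-like and haematopoietic progenitor-like cells the Rpl39l values of -0.86 (SE 0.56) and -1.16 (SE 0.60) rested on 85 and 82 UMIs in all. Whether the difference itself depends on the cell type was not tested.

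Rps29, a small subunit gene with a short transcript, was the other member near the top of the osteogenic classes by p. In OB-like cells it had 3040.2 and 1624 CPM in controls of 7 weeks, 2415 and 1838 in controls of 13 weeks, 2488 and 1506 in mutants of 7 weeks and 1554 and 1631 in mutants of 13 weeks. The replicate 1 libraries were higher in 3 of the 4 groups, and the genotypes overlapped. The log2 difference was -0.32 (SE 0.22, edgeR adjusted p 0.705), and it was -0.06 without the control of 7 weeks replicate 1. With the replicate block Rps29 was called in OB-like cells (-0.30, SE 0.08, edgeR adjusted p 0.0495) and in erythroid-like cells (-0.25, SE 0.06, edgeR adjusted p 0.0481). In all 11 cell types the value for Rps29 was negative, from -0.43 in Sca1+ MSC-like and Postn+ OP/preOB-like cells to -0.24 in endothelial-like cells, with none called without the block. The sign depended on 1 library in erythroid-like cells, where the value was -0.26, and 0.02 without the control of 7 weeks replicate 1. The same libraries supply all of these values, so the cell types are not independent of each other. Rps28, also short, had -0.32 in Lepr+ MSC-like and -0.31 in Lepr+ OP-like cells (edgeR adjusted p 0.864 and 0.873), and Rpl38 had -0.38 in Postn+ OP/preOB-like cells (0.737). These values moved with single libraries, to -0.12 for Rps28 in Lepr+ MSC-like cells and -0.18 for Rpl38 without the control of 13 weeks replicate 1, and to -0.10 for Rps28 in Lepr+ OP-like cells without the mutant of 7 weeks replicate 2.

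The members lay on the same side in some classes. In Postn+ OP/preOB-like cells 75 of 78 had a negative log2 fold change, with a median of -0.15, against 0.00 over all genes, and this median stayed between -0.22 and -0.06 when any single library was left out. Secreted matrix genes held 6.55, 7.22, 9.25 and 6.75% of the UMIs of this class in controls and 9.50, 8.45, 11.2 and 8.44% in mutants (7 weeks replicate 1 and 2, then 13 weeks), and their part in the members' values was not tested. In erythroid-like cells 63 of 77 members were positive, with a median of 0.10 (0.04 to 0.14 without any single library). In OB-like cells 51 of 78 were positive, with a median of 0.03 that ran from -0.03 to 0.08 when 1 library was left out, so that its sign is not settled, while the mean share of UMIs was lower in mutants. The medians of the other 8 classes ran from -0.08 to 0.06.

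The members move together from mouse to mouse as well: in OB-like cells the correlation of their levels over the 8 mice had a median of 0.59 over all pairs of members, and 77.2% of pairs were positive. Counts of members on one side therefore do not add up like independent genes. The classes share their mice, and no test of the list was made.

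**Figure D5:**
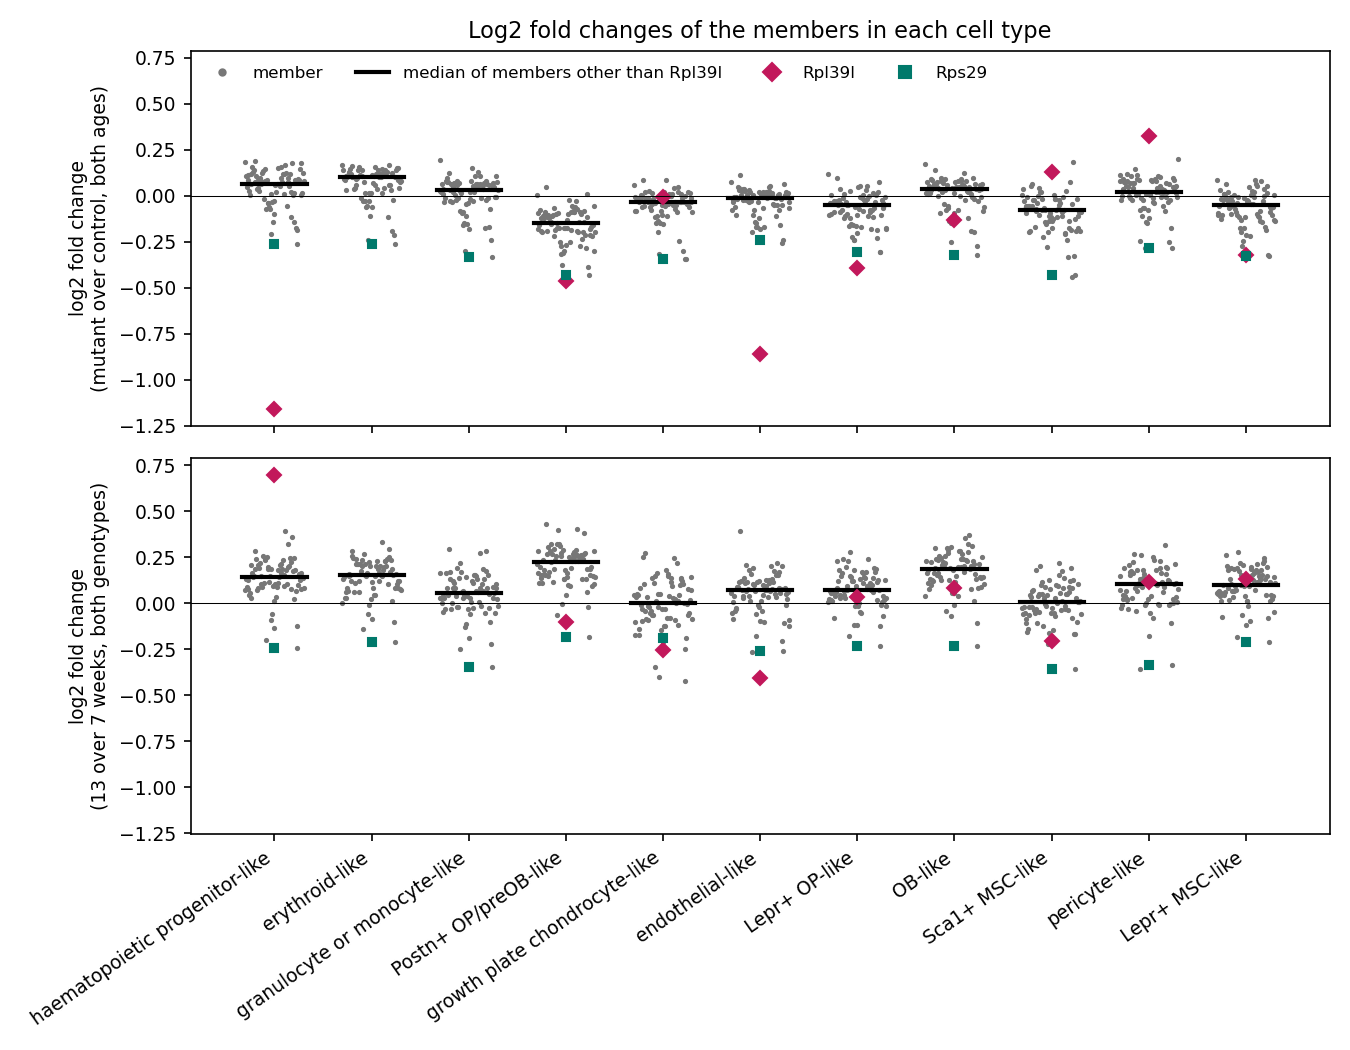
Log2 fold change of each member (y axis) in 11 cell types (x axis), for mutant over control in the upper panel and 13 over 7 weeks in the lower panel, with grey points for members, black lines for the median of members other than Rpl39l, diamonds for Rpl39l and squares for Rps29. The upper line is lowest in Postn+ OP/preOB-like cells at about -0.15, and the lower line lies above 0.14 in the haematopoietic progenitor-like, erythroid-like, Postn+ OP/preOB-like and OB-like classes. Rpl39l is not drawn for erythroid-like and granulocyte or monocyte-like cells.

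The mean share was higher at 13 than at 7 weeks in 9 of the 11 classes, and no difference passed. As for genotype, a single class could not pass the adjustment, so this does not show that the ages were alike. In OB-like cells the 4 mice of 7 weeks had 9.92 to 10.9% ribosomal UMIs and the 4 of 13 weeks had 10.3, 12.1, 12.3 and 12.4%. Of the older mice, 3 lay above all younger ones and the mutant of 13 weeks replicate 1 within their range, with means of 11.8% ± 1.01 and 10.3% ± 0.423. The difference of 1.45 percentage points had an exact permutation p of 0.0857 and an adjusted p of 0.566 over the 11 cell types. In OB-like, haematopoietic progenitor-like and erythroid-like cells the older mouse was higher in 4 of 4 pairs of the same genotype and replicate number, for which an exact sign-flip test gives 0.125, the smallest p it allows. The labels pair no mice across ages, so this result depends on the numbering. In erythroid-like cells the control of 7 weeks replicate 1 (31.2%) lay above the control of 13 weeks replicate 2 (30.7%).

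Haematopoietic progenitor-like cells had 34.5, 32.6, 35.6 and 30.9% at 7 weeks and 34.9, 34.8, 37.6 and 35.9% at 13 weeks, in the order control replicate 1 and 2, then mutant. Both mutants of 13 weeks lay above all younger mice, and the difference was 2.41 points (exact permutation p = 0.114), or 1.57 without the mutant of 7 weeks replicate 2. In erythroid-like cells the difference was 1.94 points, with an exact permutation p of 0.171. The lowest value in both classes was that of the mutant of 7 weeks replicate 2, in which secreted matrix genes also had their highest share, 1.54 and 1.76% of UMIs against at most 0.849 and 1.37% in the other mice. Without these genes in the denominator the differences were 2.32 and 1.78 points. In growth plate chondrocyte-like and Sca1+ MSC-like cells the older mice had lower means, by 0.312 and 0.839 points, and no cell type passed (adjusted exact permutation p 0.566 to 0.829). In these 2 classes the mice of 7 weeks ran from 13.1 to 15.02% and from 9.56 to 12.8%. The ages overlapped in both, so single libraries weigh on these differences.

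For single members, 0 of 856 tests passed for age in edgeR and 24 had an unadjusted p under 0.05. DESeq2 called 1, in OB-like cells, where it called 3.07% of all genes. The rates that follow are those of edgeR. All genes were called at 4.81% in growth plate chondrocyte-like, 2.98% in endothelial-like, 2.22% in Postn+ OP/preOB-like, 1.8% in OB-like, 0.883% in pericyte-like, 0.525% in Lepr+ OP-like, 0.346% in Lepr+ MSC-like, 0.019% in haematopoietic progenitor-like and 0.125% in granulocyte or monocyte-like cells, and at 0.0% in erythroid-like and Sca1+ MSC-like cells. Without the control of 13 weeks replicate 2, edgeR called 1 member, Rpl35 in growth plate chondrocyte-like cells, and 8.25% of all genes there. All 24 unadjusted results were higher at 13 weeks. They fell on erythroid-like cells (10 members, 13.0% of those tested, against 4.64% of all genes), OB-like cells (6, 7.69% against 13.7%) and haematopoietic progenitor-like cells (5, 6.41% against 5.35%), with 1 each in endothelial-like, granulocyte or monocyte-like and Postn+ OP/preOB-like cells.

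Rpl21 was among these unadjusted results in 5 cell types and Rps24, named after its values were seen, in 4. Rps24 had a log2 difference of 0.36 (SE 0.11) in haematopoietic progenitor-like, 0.29 (SE 0.095) in erythroid-like, 0.28 (SE 0.12) in granulocyte or monocyte-like and 0.31 (SE 0.12) in OB-like cells. Rpl21 had 0.43 (SE 0.17) in Postn+ OP/preOB-like, 0.39 (SE 0.14) in endothelial-like, 0.30 (SE 0.12) in OB-like, 0.29 (SE 0.13) in haematopoietic progenitor-like and 0.26 (SE 0.11) in erythroid-like cells. Rps19 had 0.28 (SE 0.11) in OB-like, 0.32 (SE 0.11) in haematopoietic progenitor-like and 0.23 (SE 0.10) in erythroid-like cells. None of these was called, with edgeR adjusted p of at least 0.188.

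The member that DESeq2 called was Rps2, whose product lines the mRNA entry channel, in OB-like cells. It had 1300.5 and 1408 CPM in controls and 1411 and 1299 in mutants of 7 weeks, and 1749 and 1640 in controls and 1625 and 2000 in mutants of 13 weeks. All mice of 13 weeks were above all mice of 7 weeks. The share of all genes that separated the ages in this class is not given here. The log2 difference was 0.37 (SE 0.12), with an adjusted p of 0.196 in edgeR and 0.0392 in DESeq2, which called 1 of 78 members and 3.07% of all genes in this class.

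The stalk gene Rplp1 also separated the ages in OB-like cells, with 2544 to 2873 CPM at 7 weeks and 3090 to 3385 at 13 weeks (log2 0.29, SE 0.12, edgeR adjusted p 0.318). Here too the share of all genes that did so is not given. Its partner Rplp0 had a log2 difference of 0.04 (SE 0.14) there. Rplp2 had 0.28 (SE 0.16), and its replicates overlapped between the ages, with 647 to 973 CPM at 7 weeks and 911 to 1065 at 13 weeks. The 5S particle genes gave 0.06 (Rpl5, SE 0.10) and 0.17 (Rpl11, SE 0.15). Most other members leaned the same way without passing.

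The median log2 difference of the members between ages was 0.22 in Postn+ OP/preOB-like cells (73 of 78 positive), 0.18 in OB-like (73 of 78), 0.15 in erythroid-like (71 of 77) and 0.15 in haematopoietic progenitor-like cells (72 of 78), against all-gene medians of 0.01, 0.00, 0.00 and -0.01. Leaving out any single library kept these 4 medians positive, at 0.12 to 0.30, 0.13 to 0.23, 0.10 to 0.20 and 0.11 to 0.23. In growth plate chondrocyte-like and Sca1+ MSC-like cells the median was 0.00, with 40 of 78 members positive in each. Rps29 was negative in all 11 classes, from -0.36 in Sca1+ MSC-like to -0.19 in Postn+ OP/preOB-like cells, with none called.

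Whether the genotype difference itself changed with age was tested in the same model. None of 856 member tests passed in edgeR, 0 had an unadjusted p under 0.05 and DESeq2 called 0, and all genes were called at 0.0% in each of the 11 classes. In Sca1+ MSC-like cells 77 of 78 members had a positive interaction, with a median of 0.38, and in pericyte-like cells 73 of 78, with a median of 0.26, so that the mutant minus control value was higher at 13 than at 7 weeks. These classes had 33 to 176 and 42 to 213 cells per mouse, and the medians stayed above 0 without any single library (0.18 to 0.61 and 0.03 to 0.45). The lean was not particular to them. Elsewhere the median was -0.02 in Postn+ OP/preOB-like cells and positive in each remaining class. It ran there from 0.02 in Lepr+ OP-like to 0.16 in haematopoietic progenitor-like cells (68 of 78 positive), all from the same libraries.

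Other genes of the ribosome and of protein synthesis were described from fixed lists. Of 10 ribosomal protein genes whose symbols the rule does not take, among them Fau, Rack1 and Rps3a1, 9 were found, and they held UMIs equal to 4.55% of those of the members. None was called. Their median log2 difference by genotype was -0.15 in Postn+ OP/preOB-like cells (9 of 9 negative) and their median by age was 0.29 there and 0.24 in OB-like cells, beside -0.15, 0.22 and 0.18 in the members. The 16 translation factor genes had a genotype median of -0.17 in Postn+ OP/preOB-like cells (15 of 16 negative), and none was called.

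None of 30 ribosome biogenesis genes or 78 mitochondrial ribosomal protein genes was called by genotype in any class. By age, the mitochondrial list went a different way from the cytosolic members in growth plate chondrocyte-like cells, where its median was -0.31, 73 of 78 genes were negative, 37 of 78 had an unadjusted p under 0.05, and 5 of 78 were called. Of all genes in this class, 23.9% had an unadjusted p under 0.05 and 4.81% were called, with a median of 0.00. The 5 were Mrps7 (-0.59, SE 0.14, edgeR adjusted p 0.0344), Mrpl12 (-0.67, SE 0.17, 0.0497), Mrps16 (-0.71, SE 0.16, 0.0321), Mrps34 (-0.72, SE 0.18, 0.0462) and Mrps10 (-0.61, SE 0.16, 0.0499), all lower at 13 weeks. Of the 30 biogenesis genes, 1 was called by age in this class, Bop1, needed for processing of large subunit RNA (-0.63, SE 0.15, edgeR adjusted p 0.0378). The biogenesis list had a median of -0.06, with 20 genes negative, 10 positive and 7 at an unadjusted p under 0.05. The cytosolic members had a median of 0.00 in the same cells.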

How the data were processed

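The authors deposited raw counts, that is UMIs of each gene in each barcode from Cell Ranger 6.1.2, neither normalized nor pooled. Per the labels, Seurat 4.3 and the build mm10 were also used. The labels name a NextSeq 2000 as the sequencer and the paper a NovaSeq. Cells with 200 to 6000 genes and at most 10% mitochondrial UMIs were kept, and doublets (9.67 to 11.3% of a library) were removed by simulation. Cells were integrated with Seurat 5.3.0 (reciprocal PCA, 2000 variable genes without SOXC and ribosomal protein genes, 30 components) and clustered with leidenalg 0.10.2 (20 neighbours, resolution 1, run to convergence). Of 5 seeds, 4 parted the Postn+ class from Lepr+ OP-like cells. A cluster was named when at least 3 markers of a list were 2 times as high as in the median of the remaining clusters and seen in 10% of its cells. Clusters of few UMIs (median below 33.3% of that of the cells' own library) were set apart.

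UMIs were summed per mouse, the replicate, and class (at least 10 cells). Sums were tested in R 4.3.3 with edgeR 4.0.16 (TMM, filterByExpr, quasi-likelihood test, 4 residual degrees of freedom), adjusted over all genes of a class by Benjamini-Hochberg, with a threshold of 0.05. DESeq2 1.42.0 was an alternative. Shares were tested by exact permutation over mice. Scripts were tested on simulated data. Gene positions and lengths came from GENCODE (GRCm38) and promoter starts from RefSeq. The rule for naming members took those called, the 3 with the smallest genotype p in each of the 4 osteogenic classes, the 10 with the widest range over cell types and those fixed by role. Rps2, Rps10, Rps18, Rps21, Rps24, Rpl6, Rpl12, Rpl13, Rpl32, Rpl35, Rpl37 and Rpl27a were named after their values were seen. Members and lists were chosen with earlier results of these data known.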

Additional observations from a re-analysis of the deposited data

Results flagged for a closer look

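In 50 sets of 4 mice (share of ribosomal UMIs by genotype, and named members), 3 held a mouse apart from the other 3 by Dixon's 95% criterion (0.829), and chance flags about 1 in 20. This count does not cover the share by age, where single mice also lay apart. Among them were the mutant of 13 weeks replicate 1 in OB-like cells (10.3%, against 12.1 to 12.4%) and the mutant of 13 weeks replicate 2 in pericyte-like cells (10.1%, against 8.17 to 8.33%). Another was the mutant of 7 weeks replicate 2 in growth plate chondrocyte-like cells (13.1%, against 14.8 to 15.02%). The 3 flagged sets were as follows. The ribosomal share of OB-like cells in the mutant of 13 weeks replicate 2 was 12.4%, against 9.92 to 10.3% in the other mutants. In erythroid-like cells the mutant of 7 weeks replicate 2 had 28.3%, against 32.4 to 33.2%. Rps29 in OB-like cells of the mutant of 7 weeks replicate 1 was 2488 CPM, against 1506 to 1631 in the other mutants.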

How the results depend on the processing

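Of the results that answer a comparison, 418 recomputed values kept their direction and side of the threshold, 21 reversed and 3 moved. No share difference had passed at first, and the sign-flip test with the replicate block allows no p below 0.125. The settings with 1 replicate number could not pass either. For these share values the side of the threshold was fixed in advance and says nothing about stability. None of the reversed share differences had passed a test. Genotype differences in share (percentage points) reversed with only the replicate 1 libraries in endothelial-like (0.407), granulocyte or monocyte-like (0.276), growth plate chondrocyte-like (0.290) and pericyte-like cells (-0.0794), with only the replicate 2 libraries in haematopoietic progenitor-like cells (-0.333), without secreted matrix genes in granulocyte or monocyte-like cells (0.0286), and in pericyte-like cells with a mitochondrial limit of 5% (-0.170) or the mean of per-cell shares (-0.0912). Age differences reversed in Sca1+ MSC-like cells with the 5% limit (0.0883) and in granulocyte or monocyte-like cells with only the replicate 1 libraries (-1.10). The settings with 1 replicate number, and the merged Lepr+ OP and Postn+ class, were chosen after seeing the data. The cause was not tested.

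Leaving out 1 library gave genotype differences of -0.590 to 0.105 in endothelial-like, -0.494 to 0.666 in granulocyte or monocyte-like, -0.0834 to 2.17 in haematopoietic progenitor-like and -0.312 to 0.502 in pericyte-like cells, and age differences of -0.124 to 0.574, -0.237 to 0.924 and -0.0663 to 0.724 in endothelial-like, granulocyte or monocyte-like and pericyte-like cells. Rps29 in erythroid-like cells ran from -0.509 to 0.0179 (without the control of 7 weeks replicate 1) by genotype. The count of members called by age was 0 to 1, the call being Rpl35 in growth plate chondrocyte-like cells (-0.65, edgeR adjusted p 0.0339) without the control of 13 weeks replicate 2, when 8.25% of all genes were called there. DESeq2 called 1 member by age, in OB-like cells, where it called 3.07% of all genes. Without the filter on low counts the all-gene genotype median moved to 0.15 in Sca1+ MSC-like and -0.14 in pericyte-like cells, and the members' medians there were 0.00 and -0.07.

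Replicate numbers in the labels do not say which mice were sisters. Deviations of same-numbered control and mutant mice correlated positively, at 0.0831 to 0.801, with both ages over 0.1 in 9 of 11 cell types. Although most classes showed this correlation, the numbers were left out of the main model, because the labels name no pairs and not every class was over 0.1. The choice matters, since the block changed the calls. With the correlations across ages included, all 4 were over 0.1 in 8 of 11 classes, not in growth plate chondrocyte-like, Sca1+ MSC-like and granulocyte or monocyte-like cells. With the replicate number as a block, 3 members were called by genotype instead of 0 (Rpl39l in Postn+ OP/preOB-like cells, Rps29 in OB-like and erythroid-like cells, edgeR adjusted p 0.0397, 0.0495 and 0.0481) and 0 by age. In these classes the block raised the share of all genes called from 0.783 to 2.36%, from 1.36 to 8.51% and from 0.0 to 0.543%. Rpl39l had too few counts for a test in erythroid-like and granulocyte or monocyte-like cells.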
